A study of Mus musculus with 42 samples.

Results

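The comparison described here is that of immobilized with basal tibialis anterior (TA) muscle of wild-type (WT) mice in the second of the study's 2 sets of RNA-seq libraries. The members are the 8 libraries that the labels call WT, set 2 and either immobilized (4 libraries) or basal (4 libraries), of 42 libraries in all. Every mouse was a male C57BL/6J of 4 months. The right hindlimb was fixed with plastic sticks and a bandage under anesthesia, the muscles for gene expression were taken at day 3, and basal mice were other mice that went through no procedure. Bandaging, anesthesia and disuse therefore cannot be told apart from each other in this contrast. Set 2 also held 4 denervated WT muscles, from mice that had lost a segment of the sciatic nerve, and 4 basal and 4 immobilized muscles of Sesn1-/- mice (deficient in sestrin 1). Set 1 held 4 basal and 3 immobilized WT muscles, from non-transgenic littermates of sestrin-overexpressing lines. It also held basal and immobilized muscles of these transgenic lines, which overexpress human sestrin 1 or sestrin 2 in muscle. The transgenic libraries entered the fit of set 1 and the fits of all 42 libraries, where they shared in the estimate of the spread. The labels give 1 TA muscle per library and do not name the mouse, so p-values measure the spread between these libraries.

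Skeletal muscle matches its mass and its contractile and metabolic gene program to the load and the nerve activity it receives. A muscle that is not used loses protein within days. This loss is known to run through the ubiquitin-proteasome system, in which E3 ligases mark proteins with ubiquitin and the proteasome digests them, and through autophagy, in which vesicles carry cell contents to lysosomes. Sestrins, the proteins at the center of the study, are stress-induced and are known to hold back the growth kinase complex mTORC1 and to act on AMPK and AKT. Joint fixation also changes the length and the tension of a muscle, and genes of the Z-disc, the anchoring line of the contractile unit, are known to respond to tension.

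The values were normalized counts, close to CPM (the share of a library's reads, scaled to 1000000), and their log2(value + 1) was compared with limma in a fit of the 20 libraries of set 2. The summed normalized counts were 1042064 to 1099736 in basal and 964609 to 1001232 in immobilized libraries, and the number of reads behind them is unknown. The 10 most abundant genes took 25.6% to 26.2% of the sum in basal and 21.7% to 22.5% in immobilized libraries. Correlations between libraries of a group were 0.979 to 0.987 for basal and 0.974 to 0.982 for immobilized muscle, so that no library stood apart by this measure. The median SD of a gene over 4 libraries was 0.174 on the log2 scale in basal and 0.216 in immobilized muscle. Markers of skeletal muscle fibers were abundant in all 8 libraries, with a mean of 20471 ± 1212 (SD, n = 4) normalized counts of Ckm, the muscle creatine kinase, in basal muscle and 14331 ± 817 in immobilized muscle.

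Immobilization was accompanied by a change in about as many genes upward as downward. Of 13629 genes tested, 4624 (33.9%) passed an adjusted p under 0.05 with a log2 fold change of at least 0.25 in size, the rule by which a gene is called here. Of these, 2205 (16.2% of the genes tested) were higher and 2419 (17.7%) lower in immobilized muscle. The median log2 fold change of all genes was -0.021. The 4 immobilized libraries did not overlap the 4 basal ones in 4424 genes (32.5%), 2202 of them above and 2222 below, and 3774 genes were both called and free of overlap. Changes of at least 1 in log2 were called in 348 genes upward and 338 downward, and changes of at least 2 in 49 upward and 26 downward. The split between directions depended on the scale. With each library rescaled to a sum of 1000000, which raised the median of all genes to 0.0762, 2940 genes were higher and 1629 lower.

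**Figure D1:**
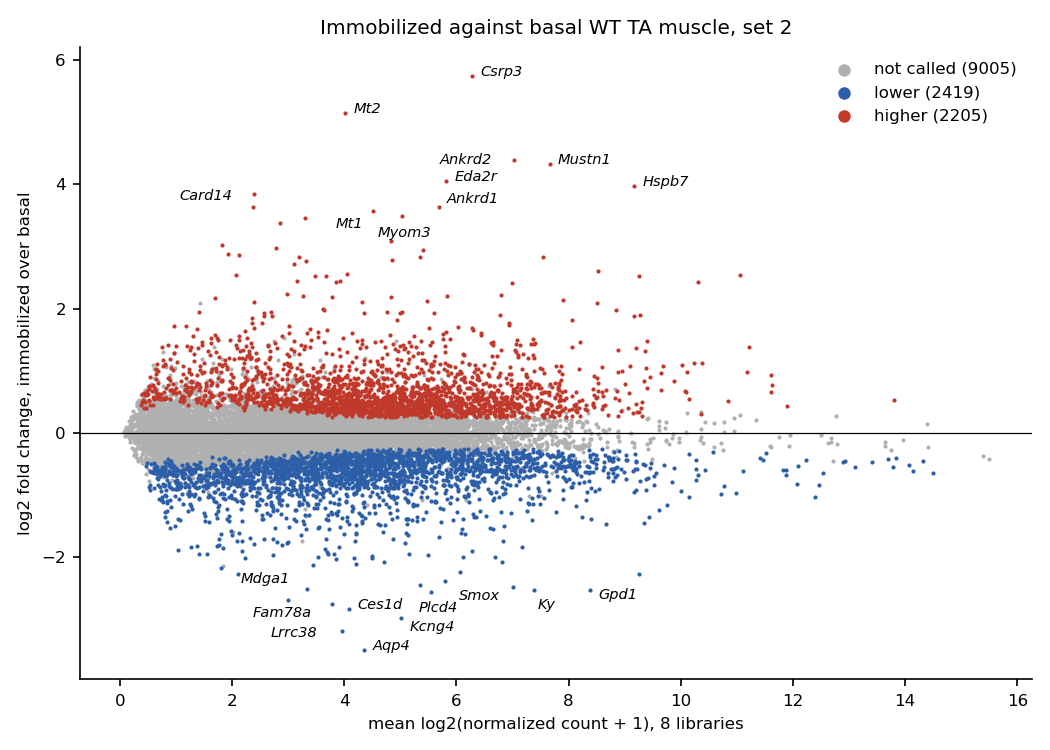
Log2 fold change of immobilized over basal WT muscle (vertical axis) against the mean log2(normalized count + 1) of the 8 libraries (horizontal axis) for the 13629 genes tested. Genes called higher are red, genes called lower are blue and the others are grey, and the genes with the largest changes are named. The named genes at the top include Csrp3 at 5.74 and those at the bottom Aqp4 at -3.49.

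The largest rise was that of Csrp3 (ENSMUSG00000030470), which encodes muscle LIM protein, a Z-disc protein that takes part in the response to stretch. The gene lies on chromosome 7 from 48830398 to 48848033 (GRCm38, minus strand). The basal libraries held 7.56, 10.2, 10.9 and 10.1 normalized counts and the immobilized libraries 493, 315, 932 and 719. Every immobilized library was thus far above every basal one, although the immobilized libraries differed among themselves. The log2 fold change was 5.74 ± 0.40 (standard error from limma, 4 against 4 libraries, adjusted p = 2.75e-09).

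Ankrd2 (ENSMUSG00000025172, chromosome 19 from 42036000 to 42045110, plus strand) and Ankrd1 encode ankyrin repeat proteins of the same family, which are known to rise in stretched or denervated muscle. Ankrd2 went from 27.6, 35.2, 28.6 and 20.7 normalized counts in basal libraries to 595, 425, 843 and 606 in immobilized ones, a log2 fold change of 4.40 ± 0.28 (adjusted p = 5.51e-10). Ankrd1 went from 18, 20.9, 17.9 and 4.82 in basal to 113, 152, 372 and 164 in immobilized libraries (3.63 ± 0.54, adjusted p = 2.92e-05). The groups overlapped for neither gene, and for Ankrd1 the fourth basal library was the lowest and the third immobilized library the highest. Mustn1, which encodes a small nuclear protein of the musculoskeletal system, held 33.6, 47.9, 52.2 and 45.7 in basal and 973, 626, 1146 and 969.9 in immobilized libraries, a log2 fold change of 4.33 ± 0.25 (adjusted p = 2.53e-10). The 13 tested genes of a list of stretch-responsive and Z-disc-associated genes divided into 11 higher, 1 lower and 1 that was not called, with a median log2 fold change of 2.14 beside the -0.021 of all genes. The list was written with earlier results of these data known and holds Csrp3, Ankrd2, Ankrd1, Mustn1 and Ky. Its counts and median therefore describe the chosen members and do not test the group. The other called members upward included Fhl1 (2.55 ± 0.22), a LIM domain protein, the filamin Flnc (2.43 ± 0.23) and the actin-binding protein Xirp1 (2.14 ± 0.34). The member that fell was Ky, the kyphoscoliosis peptidase of the Z-disc, with 424, 351, 434 and 391 normalized counts in basal and 76.2, 78.6, 38.1 and 94.7 in immobilized muscle (-2.53 ± 0.38). The member that was not called was Tcap, the titin cap (0.29 ± 0.17).

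TEAD transcription factors bind a motif with the letters CATTCC, known as M-CAT, in promoters of muscle genes and of genes that respond to cell tension. The motif was searched on both strands of the RefSeq promoter windows (GRCm38.p6, 250 bases before to 50 after a start) of the Z-disc list and of Cyr61 and Ctgf. Of 15 genes 12 had a window, and 7 of their 16 windows (43.8%) held the letters, beside 14.7% of 32851 windows of all genes. These 7 windows belong to 5 genes, since Flnc and Ankrd23 were each counted with more than 1 window. The windows of Flnc overlap, and Cyr61 is among the 5 genes. Such a match is a description of the sequence and not of binding. The window of Ankrd1 (chr19:36119795-36120094, minus strand) is shown because it held 2 matches, in capitals here.
Ankrd1: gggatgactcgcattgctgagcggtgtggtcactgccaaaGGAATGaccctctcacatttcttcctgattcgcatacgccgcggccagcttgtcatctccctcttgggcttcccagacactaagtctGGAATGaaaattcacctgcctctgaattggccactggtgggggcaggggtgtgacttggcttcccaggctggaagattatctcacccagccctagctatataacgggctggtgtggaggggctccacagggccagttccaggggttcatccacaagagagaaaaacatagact
The windows of Csrp3 and Ankrd2 held none.

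The metallothioneins Mt1 and Mt2, small proteins that bind zinc and copper and that respond to metals and to glucocorticoids, were among the 10 largest rises. Mt2 held 1.26, 1.37, 3.74 and 1.12 normalized counts in basal and 53.7, 152, 120.0 and 82.7 in immobilized libraries, a log2 fold change of 5.15 ± 0.62 (adjusted p = 2.58e-06). Mt1 held 5.67, 5.21, 6.08 and 5.47 in basal and 53.5, 96.4, 108 and 64.5 in immobilized libraries (3.57 ± 0.62, adjusted p = 1.37e-04). For both genes the second and the third immobilized libraries were the highest. Of the other tested genes of metallothionein and zinc transport, the importer Slc39a8 fell (-0.69 ± 0.17), whereas the metal-sensing factor Mtf1 (-0.04 ± 0.13) and the exporter Slc30a1 (-0.07 ± 0.17), both known to respond to zinc, were not called. The metal response motif that Mtf1 binds has the core TGCACNC or TGCGCNC. The promoter windows of Mt2 (chr8:94172368-94172667, plus strand) and Mt1 (chr8:94178839-94179138, plus strand) are shown because the genes lie side by side and rose together. On both strands the core was found 4 times in the first and 3 times in the second window, in capitals here, and in 25.7% of all windows at least 1 time.
Mt2: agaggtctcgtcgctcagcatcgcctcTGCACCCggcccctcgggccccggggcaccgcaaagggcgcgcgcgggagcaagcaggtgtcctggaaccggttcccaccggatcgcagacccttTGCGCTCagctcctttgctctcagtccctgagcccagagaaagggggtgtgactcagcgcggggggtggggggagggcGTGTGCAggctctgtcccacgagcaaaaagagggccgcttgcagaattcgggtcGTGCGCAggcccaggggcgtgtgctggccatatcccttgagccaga
Mt1: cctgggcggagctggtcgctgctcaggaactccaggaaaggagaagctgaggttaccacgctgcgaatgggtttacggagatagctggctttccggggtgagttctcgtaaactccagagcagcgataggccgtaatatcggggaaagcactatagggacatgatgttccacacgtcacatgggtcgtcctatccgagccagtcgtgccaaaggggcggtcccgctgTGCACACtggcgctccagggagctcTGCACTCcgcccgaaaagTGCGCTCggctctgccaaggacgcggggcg
These counts describe the letters of the window only.

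Other genes with a rise among the 10 largest had roles outside these groups. Eda2r, a receptor of the TNF receptor superfamily that is a known p53 target, held 16.1, 12.5, 9.06 and 14.7 normalized counts in basal and 221, 253, 264 and 185 in immobilized libraries (4.06 ± 0.17, adjusted p = 2.37e-12). Myom3, the third myomesin of the M-band at the center of the sarcomere, held 10.8, 10.5, 9.98 and 5.12 in basal and 129.6, 67.1, 112 and 143 in immobilized libraries (3.49 ± 0.34). Card14, a scaffold protein of NF-kB signaling, held 0.234, 0.348, 0.626 and 0.354 in basal and 4.82, 47.7, 21.3 and 24.0 in immobilized libraries (3.85 ± 0.69, adjusted p = 1.85e-04). The first immobilized library was lowest for Card14, and 955 exon bases of this gene overlap Sgsh on the other strand, so that without a stated strand their reads cannot be told apart. Sgsh itself was not called (-0.23 ± 0.15).

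Small heat shock proteins hold unfolded proteins and protect the Z-disc and the filaments of muscle. All 8 genes of a list of these proteins and of their co-chaperone Bag3 were higher, beside 16.2% of all genes. Their median log2 fold change was 1.25. Their summed level went from 1607 to 1796 normalized counts in basal libraries to 5181 to 7234 in immobilized ones. The list was written with earlier results of these data known and holds Hspb7. Its count therefore describes the chosen members and does not test the group. Hspb7, found mostly in heart and muscle, held 116, 182, 143 and 142 normalized counts in basal and 2408, 1782, 2593 and 2447 in immobilized libraries (3.98 ± 0.23, adjusted p = 1.84e-10). Hspb1, also named Hsp25, held 51.4, 43.8, 52.9 and 73.5 in basal and 287, 205, 441 and 281 in immobilized libraries (2.40 ± 0.31). Cryab, alpha-B-crystallin, rose by 1.87 ± 0.26. The smallest rise was that of Bag3 (0.48 ± 0.18, adjusted p = 0.041), whose call was lost without any of basal replicates 1 to 3 or immobilized replicates 2 to 4, with log2 fold changes of 0.43 to 0.50. The larger chaperones moved less: of 21 genes of HSP70, HSP90, HSP40 and HSP60 proteins 8 were higher and 1 lower, with a median of 0.32. Hsp90ab1, a constitutive HSP90, rose by 0.55 ± 0.09, the mitochondrial chaperone Hspd1 fell (-0.43 ± 0.07), and the stress-induced Hspa1a (0.73 ± 0.64) was not called. The count of 8 fell to 4 without the third immobilized library and to 5 without the second, or without the second or the third basal library.

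Heat shock factors bind repeats of the letters GAA in alternating direction. With GAANNTTC or TTCNNGAA as the motif, 5 of 7 promoter windows (71.4%) of the 6 matched genes of the small heat shock list held it, beside 15.1% of all windows. The window of Hspb1 (chr5:135887669-135887968, plus strand) held 2 matches, in capitals here, and that of Hspb7 held none.
Hspb1: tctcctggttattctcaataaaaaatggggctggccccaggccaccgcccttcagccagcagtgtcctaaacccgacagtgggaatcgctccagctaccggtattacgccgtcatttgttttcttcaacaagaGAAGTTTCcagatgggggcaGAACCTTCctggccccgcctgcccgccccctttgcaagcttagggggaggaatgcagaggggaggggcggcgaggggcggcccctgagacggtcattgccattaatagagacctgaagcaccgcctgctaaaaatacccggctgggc
The search says nothing of binding in these muscles.

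**Figure D2:**
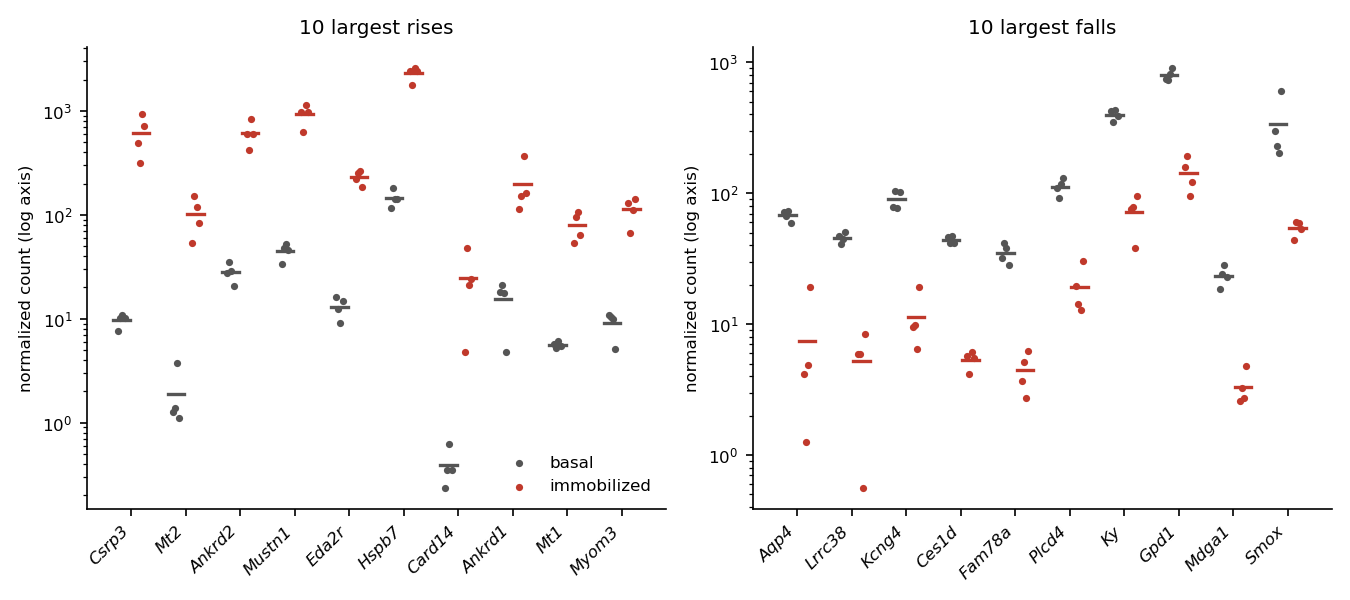
Normalized counts on a log axis in each of the 4 basal (grey) and 4 immobilized (red) WT libraries for the 10 genes with the largest rise (left) and the 10 with the largest fall (right) among genes whose groups do not overlap. Points are libraries and bars the group means. Csrp3 lies between 7.56 and 10.9 in basal and between 315 and 932 in immobilized libraries, and Card14 has 1 immobilized library far below the other 3.

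The genes that fell most were mainly of membrane channels and metabolic enzymes. Aqp4 (ENSMUSG00000024411), the water channel of the fast-fiber membrane, held 72.5, 66.5, 73.3 and 59.3 normalized counts in basal and 4.14, 1.26, 4.85 and 19.3 in immobilized libraries, a log2 fold change of -3.49 ± 0.47 (adjusted p = 9.80e-06). The fourth immobilized library was the highest of its group and still below every basal one. Lrrc38 (ENSMUSG00000028584, chromosome 4 from 143349757 to 143371032, plus strand), an auxiliary subunit of the calcium-activated potassium channel BK, held 47.1, 41.2, 44.7 and 50.5 in basal and 5.93, 5.89, 0.559 and 8.36 in immobilized libraries (-3.19 ± 0.38, adjusted p = 2.20e-06). Kcng4, a modifier subunit of voltage-gated potassium channels, held 78.1, 103, 77.1 and 102 in basal and 9.57, 9.88, 6.45 and 19.3 in immobilized libraries (-2.98 ± 0.29). A list of 25 ion and water channels and pumps of the fiber membrane had 13 lower and 4 higher members, with a median of -0.42. Further members downward were Atp1b2 (-1.99 ± 0.29), the second beta subunit of the sodium pump, the sodium channel subunit Scn4b (-1.46 ± 0.20) and Clcn1 (-1.12 ± 0.18), the chloride channel that sets the resting conductance of the fiber. Among the members that rose were Kcnn3 (1.40 ± 0.22), a small-conductance calcium-activated potassium channel known from denervated muscle, and Cacng1 (0.75 ± 0.10), a subunit of the calcium channel of the T-tubule.

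Ces1d, a carboxylesterase that cleaves lipid esters, held 46.1, 41.97, 46.7 and 41.6 normalized counts in basal and 5.73, 4.16, 6.08 and 5.49 in immobilized libraries (-2.83 ± 0.23, adjusted p = 1.47e-08). Gpd1, the cytosolic glycerol 3-phosphate dehydrogenase that links glycolysis to lipid synthesis and to mitochondrial electron transfer, held 743, 738, 810.0 and 906 in basal and 158, 194, 95.5 and 121 in immobilized libraries (-2.53 ± 0.19, adjusted p = 8.63e-09). Both pairs of groups were wide apart. Mdga1, a membrane-anchored adhesion protein, fell to a similar extent (-2.51 ± 0.18), as did Fam78a (-2.76 ± 0.18) and the phospholipase C Plcd4 (-2.55 ± 0.22). Exons of Fam78a overlap Nup214 on the other strand by 177 bases, and those of Plcd4 overlap Zfp142 on the other strand by 2101 bases. Nup214 was not called (0.13 ± 0.09), and Zfp142 had -0.42 ± 0.15, a call that was lost with rescaling to a sum of 1000000 (-0.30) and without any of 5 libraries.

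Smox, the spermine oxidase, completed the 10 largest falls, with 300.0, 231, 202 and 608 normalized counts in basal and 43.9, 60.7, 59.5 and 52.9 in immobilized libraries (-2.48 ± 0.35, adjusted p = 1.55e-05). The fourth basal library stood above the other 3, and the immobilized libraries lay close together. Polyamine genes as a whole divided evenly, with 4 of 12 higher and 4 lower. Odc1, the ornithine decarboxylase that makes putrescine, rose (1.73 ± 0.18), as did the spermidine synthase Srm (0.65 ± 0.15). Amd1 and Amd2 both fell (-2.27 ± 0.28 and -2.27 ± 0.50). They encode S-adenosylmethionine decarboxylase and are near-identical copies among which the reads of the study may have been split, so that their values are not independent.

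The muscle ubiquitin ligases Trim63 and Fbxo32 and every standard subunit of the proteasome were higher in immobilized muscle. Trim63, also named MuRF1, is a muscle E3 ligase that marks myofibrillar proteins. It held 163, 173, 147 and 222 normalized counts in basal and 521, 1069.7, 939 and 589.5 in immobilized libraries (2.09 ± 0.28, adjusted p = 7.69e-06). Fbxo32, also named atrogin-1, the substrate adaptor of another muscle ligase, held 367, 288, 252 and 390.0 in basal and 1020.0, 1906, 1194 and 863 in immobilized libraries (1.90 ± 0.40, adjusted p = 9.12e-04). For both genes the second and the third immobilized libraries were higher than the first and the fourth. Of 18 atrophy-related ligase genes 8 were higher and 3 lower (median 0.34). Fbxo40 (0.79 ± 0.14) and Fbxo30 (0.66 ± 0.16), also named MUSA1, rose, Trim55 (-0.54 ± 0.14), also named MuRF2, fell, and Nedd4 (-0.22 ± 0.11) was not called. The count of 3 lower fell to 1 without the first immobilized or without the fourth basal library. Of 11 ASB proteins, adaptors of cullin ligases, 4 were lower and 0 higher in limma (1 at an unadjusted p under 0.05). These 4 are 36.4% of the list, beside the 33.9% of all genes called in either direction and the 17.7% called lower. Asb18 (-1.19 ± 0.18) and Asb10 (-0.90 ± 0.17) had the largest falls.

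All 31 tested subunits of the standard proteasome were higher in immobilized muscle, 14 of 14 of the 20S core and 17 of 17 of the 19S regulatory particle, with log2 fold changes from 0.52 to 1.44 and a median of 0.90. This count was 31 under each of the other scalings, filters and fits tried and without each library in turn. Psma7, an alpha subunit of the core ring, held 70.8, 72.3, 59.9 and 73.3 normalized counts in basal and 169.6, 215, 188 and 139.7 in immobilized libraries (1.34 ± 0.12, adjusted p = 4.92e-08). Psmd4, a ubiquitin receptor of the regulatory particle, held 98.1, 98.5, 91.3 and 115 in basal and 274, 322, 297 and 212 in immobilized libraries (1.44 ± 0.12, adjusted p = 3.14e-08). The inducible subunits of the immunoproteasome and of its PA28 cap did not share the rise: of 5 tested 1 was lower, Psme1 (-0.59 ± 0.09), and Psme2 (0.22 ± 0.13), Psmb8 (-0.34 ± 0.28), Psmb9 (-0.60 ± 0.26) and Psmb10 (-0.12 ± 0.17) were not called. Psme2 was called at 0.34 with rescaling to a sum of 1000000. Among 12 assembly and activator genes 6 were higher and 0 lower in limma (0 at an unadjusted p under 0.05), including Nfe2l1 (0.84 ± 0.12), the transcription factor known to raise proteasome genes when proteasome activity is short, the activator Psme4 (0.59 ± 0.11) and the maturation protein Pomp (0.55 ± 0.08). The core motif TGACNNNGC, known from promoters of the antioxidant and proteasome programs, stood in 4 of 27 promoter windows (14.8%) of the 25 matched proteasome genes and in 12.4% of all windows. Of 15 genes of ubiquitin and its general handling 7 were higher and 1 lower. The polyubiquitin gene Ubb (0.98 ± 0.19) and the extraction ATPase Vcp (0.49 ± 0.08) with its cofactor Nploc4 (1.33 ± 0.11) rose.

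Autophagy genes moved less uniformly. Of 36 core genes 13 were higher and 4 lower, with a median of 0.21. Sqstm1, the receptor p62 that carries ubiquitin-marked cargo, held 398, 361, 392.3 and 523 normalized counts in basal and 1046, 1284, 1103 and 788 in immobilized libraries (1.32 ± 0.15, adjusted p = 1.33e-06). Gabarapl1, an ATG8 protein of the vesicle membrane and a known FoxO target, rose by 1.12 ± 0.20, and the phosphoinositide-binding Wipi1 by 0.94 ± 0.10. Ulk2, a kinase that starts autophagy, fell (-0.61 ± 0.13), as did Atg10 (-0.65 ± 0.15). Of 23 lysosomal genes 8 were higher and 1 lower (median 0.23), led by the membrane protein Cd63 (1.43 ± 0.12). Calls covered 39.1% of this list, beside the 33.9% of all genes. At an unadjusted p under 0.05 in limma, 9 were higher and 5 lower. Among the cathepsins, Ctsl (0.48 ± 0.12) and Ctsz (0.93 ± 0.12) rose and Ctsb (-0.41 ± 0.17) was not called. Of 19 subunits of the proton pump of lysosomes 6 were higher and 0 lower in limma (1 at an unadjusted p under 0.05), among them Atp6v1a (0.87 ± 0.13). The share of pump genes called was 31.6%, with a median of 0.09. Of all genes 33.9% were called in either direction and 16.2% were called higher. Calpain genes also divided: the small subunit Capns1 (0.63 ± 0.08), Capn2 (0.52 ± 0.12) and the inhibitor Cast (0.76 ± 0.11) rose, and Capn1 (-0.62 ± 0.12) and the muscle calpain Capn3 (-0.63 ± 0.13) fell.

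Of the 3 sestrin genes, Sesn1 and Sesn2 rose in the immobilized libraries of this set. Sesn1 held 28.1, 22.5, 29.7 and 22.8 normalized counts in basal and 30.7, 41.0, 53.1 and 39.3 in immobilized muscle, and the groups did not overlap (0.63 ± 0.17, adjusted p = 0.0072). Sesn2 held 4.24, 2.21, 4.18 and 1.64 in basal and 5.57, 8.92, 3.65 and 7.39 in immobilized libraries, with an overlap of the groups (0.87 ± 0.24, adjusted p = 0.0082). Sesn3, a FoxO target in other tissues, held 2.58, 3.38, 2.20 and 2.92 in basal and 1.84, 1.76, 2.43 and 2.04 in immobilized libraries and was not called (-0.32 ± 0.21). Of 45 genes of the sestrin, GATOR, Rag and mTOR system 10 were higher and 7 lower, close to the 33.9% of all genes in total, with a median of 0.08. Eif4ebp1, the translation repressor 4E-BP1 that mTORC1 switches off by phosphorylation, held 25.5, 21.5, 28.2 and 27.3 normalized counts in basal and 112, 127, 157 and 94.9 in immobilized libraries (2.20 ± 0.21, adjusted p = 1.39e-07). Tsc1 (0.55 ± 0.11), part of the complex that restrains mTORC1, and the mTORC1 subunit Rptor (0.39 ± 0.09) rose. The mTOR-binding inhibitor Deptor (-1.13 ± 0.22) and the stress-induced inhibitor Ddit4l (-1.84 ± 0.29), also named REDD2, fell, and its relative Ddit4 (0.71 ± 0.31) was not called. Mtor itself was not called (0.18 ± 0.11).

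In the insulin and AKT branch, Akt1 held 57.0, 48.2, 48.9 and 46.2 normalized counts in basal and 111, 140.0, 114 and 77.1 in immobilized libraries (1.10 ± 0.18, adjusted p = 9.36e-05). Pdpk1 (0.81 ± 0.08), the kinase that activates AKT, and Gsk3b (0.78 ± 0.09), a kinase that AKT switches off, also rose. Tbc1d4, the AKT substrate that governs glucose transporter traffic, fell most in this list, from 31.5, 23.7, 34.7 and 13.9 in basal to 3.81, 5.69, 6.34 and 7.43 in immobilized libraries (-1.94 ± 0.24, adjusted p = 3.15e-06). The insulin receptor adaptor Grb14 (-1.19 ± 0.19) and Foxo6 (-1.11 ± 0.18) fell as well. The FoxO genes Foxo1 (0.16 ± 0.18) and Foxo3 (0.19 ± 0.15) were not called. The list of 32 genes had 6 higher and 5 lower members, 34.4% beside the 33.9% of all genes. The 5 became 3 without the first or the third immobilized or the fourth basal library, and the counts were 3 and 3 in the fit of all 42 libraries. Of 8 AMP-activated kinase subunits and their upstream kinase 3 were lower and 0 higher in limma (0 at an unadjusted p under 0.05), with the muscle gamma subunit Prkag3 (-1.25 ± 0.29) first. These 3 are 37.5% of the list, beside the 33.9% of all genes called in either direction and the 17.7% called lower. In the myostatin and BMP pathway Mstn, the secreted inhibitor of muscle growth, fell from 50.2, 35.2, 45.1 and 64.6 normalized counts in basal to 25.5, 21.03, 14.01 and 33.7 in immobilized libraries (-1.05 ± 0.24, adjusted p = 0.0018). Gdf5, a BMP ligand known to rise in denervated muscle, held 0.213, 0.114, 0.186 and 0.0283 in basal and 0.666, 0.957, 3.12 and 0.917 in immobilized libraries (0.99 ± 0.22), values under 1 normalized count in 7 of the 8 libraries.

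Genes of cytosolic protein synthesis rose on a broad front and by small steps. Of 81 genes of cytosolic ribosomal proteins 58 were higher and 2 lower, with a median of 0.38, and their summed level went from 9549 to 10498 normalized counts in basal to 12022 to 14110.1 in immobilized libraries. Rpl3 held 31.1, 37.1, 42.2 and 28.0 normalized counts in basal and 80.7, 72.0, 137 and 119 in immobilized libraries (1.505 ± 0.18). Its muscle-specific relative Rpl3l moved the other way, with 511, 515, 515 and 487 in basal and 295, 285, 231 and 278 in immobilized libraries (-0.90 ± 0.10). Ribosomal protein genes have many processed copies in the genome, so single values among them are less certain than the group. Of 36 genes of ribosome biogenesis 24 were higher and 0 lower in limma (0 at an unadjusted p under 0.05), with a median of 0.43. They were led by Myc (1.85 ± 0.21), the factor that drives ribosome production, and included the nucleolar protein Ncl (0.79 ± 0.10) and the methyltransferase fibrillarin, Fbl (0.79 ± 0.19). Of 62 translation factor genes 30 were higher and 4 lower. The helicase Eif4a1 (1.09 ± 0.13) and the initiation factor Eif6 (0.96 ± 0.14) rose, and the cap-binding protein Eif4e (-0.69 ± 0.10) and the elongation inhibitor kinase Eef2k (-0.63 ± 0.18) fell. Of 20 cytosolic aminoacyl-tRNA synthetases 11 were higher and 0 lower in limma (0 at an unadjusted p under 0.05), led by Eprs (0.92 ± 0.09).

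Genes of the integrated stress response, which is known to follow amino acid shortage or misfolded protein, had 14 higher and 3 lower of 27. Mthfd2, a mitochondrial folate enzyme and ATF4 target, held 2.26, 2.18, 1.52 and 3.98 normalized counts in basal and 22.02, 18.2, 26.6 and 18.5 in immobilized libraries (2.71 ± 0.19, adjusted p = 2.78e-09). The factors Atf3 (2.44 ± 0.63) and Atf5 (1.15 ± 0.12), the pseudokinase Trib3 (1.36 ± 0.26) and the serine synthesis enzyme Psat1 (1.12 ± 0.29) rose too. Ddit3, also named CHOP, was not called (-0.28 ± 0.18), and Aldh1l2, another mitochondrial folate enzyme, fell (-1.12 ± 0.23). Among amino acid transporters 5 of 19 were higher, with the cationic carrier Slc7a1 (1.23 ± 0.15) first, and 2 lower, Slc38a4 (-1.26 ± 0.28) and Slc7a2 (-0.74 ± 0.18). Calls thus covered 36.8% of the transporters, near the 33.9% of all genes, and their median was 0.03.

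Mitochondrial energy metabolism went the other way. Of 83 nuclear-encoded subunits of the respiratory chain and ATP synthase 66 were lower and 0 higher in limma (0 at an unadjusted p under 0.05), with a median log2 fold change of -0.41 and a range from -0.92 to 0.12. The 66 were 32 of 37 of complex I, 12 of 14 of complexes II and III, 8 of 15 of complex IV and 14 of 17 of ATP synthase. The count was 47 with libraries rescaled to a sum of 1000000 and 39 in a fit of all 42 libraries, and the 8 of complex IV became 5 without the second basal library. Sdhd, a membrane anchor of succinate dehydrogenase, held 267, 296, 269 and 265 normalized counts in basal and 139, 139, 141 and 157 in immobilized libraries (-0.92 ± 0.08, adjusted p = 5.65e-08). Ndufs1, the largest subunit of complex I, fell by less (-0.77 ± 0.09), and so did the carrier cytochrome c, Cycs (-0.71 ± 0.09). Of 29 genes encoded in mitochondrial DNA 11 were lower and 0 higher in limma (0 at an unadjusted p under 0.05), and their summed level went from 182731 to 226654 normalized counts in basal to 143992 to 158901 in immobilized libraries. The 11 are 37.9% of the list, beside the 33.9% of all genes called in either direction and the 17.7% called lower. Their count was 6 with quantile normalization and 5 in the fit of all libraries. Of 76 mitochondrial ribosomal protein genes 28 were lower and 2 higher (median -0.24), beside the 58 higher and 2 lower of the cytosolic ones. Calls covered 39.5% of the mitochondrial list, beside the 33.9% of all genes. With rescaling to a sum of 1000000 the 28 became 15. The 2 higher mitochondrial ones became 0 without the second immobilized or any of the first 3 basal libraries.

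Of 24 genes of the citrate cycle and pyruvate dehydrogenase 18 were lower and 0 higher in limma (0 at an unadjusted p under 0.05), with a median of -0.54. Idh2, the mitochondrial NADP-dependent isocitrate dehydrogenase, held 206, 212, 212 and 94.8 normalized counts in basal and 55.5, 55.5, 62.6 and 59.1 in immobilized libraries (-1.55 ± 0.20, adjusted p = 6.88e-06). The fourth basal library was the lowest of its group and still above every immobilized one. Of 17 genes that break down branched-chain amino acids 14 were lower and 0 higher in limma (0 at an unadjusted p under 0.05, median -0.54), among them the first enzyme Bcat2 (-0.71 ± 0.16). Fatty acid genes had 17 lower and 5 higher of 33. Lpl, the lipoprotein lipase that releases fatty acids at the vessel wall (-1.17 ± 0.16), and Cpt1b, the gate of fatty acid entry into mitochondria (-0.87 ± 0.12), fell. Angptl4, a secreted inhibitor of Lpl, rose from 1.6, 0.363, 0.647 and 0.592 normalized counts in basal to 8.46, 12.6, 5.05 and 12.4 in immobilized libraries (2.53 ± 0.30, adjusted p = 1.66e-06), together with Pdk4 (1.08 ± 0.27), the kinase that switches off pyruvate dehydrogenase. Genes of glycolysis and glycogen had 21 lower and 6 higher of 36, with a median of -0.57. The muscle phosphoglycerate mutase Pgam2 (-1.03 ± 0.10) and the phosphorylase kinase subunit Phkg1 (-1.38 ± 0.16) fell, and the glycogen branching enzyme Gbe1 (1.31 ± 0.09) and the glucose transporter Slc2a1 (0.88 ± 0.26) rose.

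Some regulators of mitochondrial content were also lower. Of 15 genes of PGC-1, Perm1 and the estrogen-related receptors 8 were lower and 0 higher in limma (0 at an unadjusted p under 0.05), and 7 were not called. Perm1, a muscle factor induced by PGC-1, held 364, 370.3, 328 and 326 normalized counts in basal and 158, 187, 152 and 165 in immobilized libraries (-1.06 ± 0.12, adjusted p = 1.50e-06). Ppargc1b (-1.01 ± 0.22), Esrra (-0.60 ± 0.10) and the fatty acid sensor Ppara (-1.30 ± 0.25) fell. Vegfa, the growth factor for vessels and a known PGC-1 target, fell from 269, 234, 257 and 293 in basal to 92.0, 91.4, 119 and 95.4 in immobilized libraries (-1.40 ± 0.12, adjusted p = 2.36e-08). Ppargc1a was lower by a smaller amount (-0.59 ± 0.18), a call that was lost without the third immobilized library (-0.51) and with rescaling to a sum of 1000000 (-0.47).

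**Figure D3:**
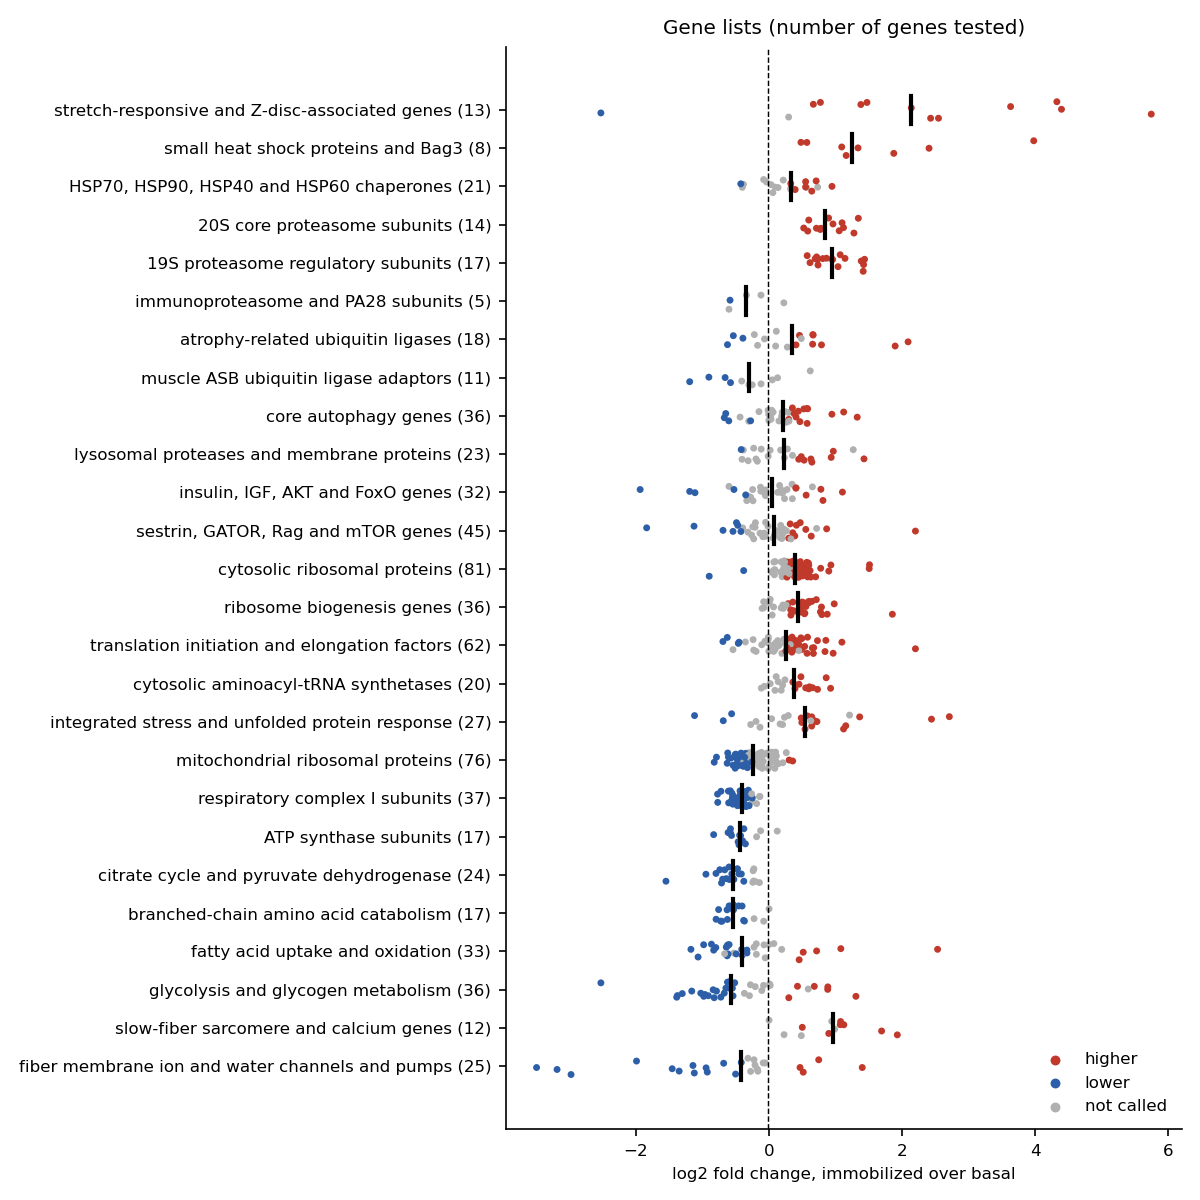
Log2 fold change of immobilized over basal WT muscle for every tested gene of 26 gene lists, 1 list per line. Each point is a gene, red where called higher, blue where called lower and grey where not called, and the black bar is the median of the list. The dashed line is the median of all genes (-0.021). All points of the 20S and 19S proteasome lists lie above 0.5, and those of the immunoproteasome and PA28 list lie below it. Complex I has no called gene above 0.

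Markers of fiber type did not move as 1 block. Of 12 genes of slow fibers 7 were higher and 0 lower in limma (0 at an unadjusted p under 0.05), with a median of 0.96, and their summed level went from 1006, 1228, 1003 and 885 normalized counts in basal to 2055, 1560.3, 2608 and 2526 in immobilized libraries. Myl2, the slow regulatory light chain (1.93 ± 0.56), and Myoz2, a calcineurin-binding protein of slow Z-discs (1.69 ± 0.29), rose, and the slow myosin Myh7 was not called (0.94 ± 0.53). Of 15 genes of fast fibers 6 were lower, led by the calcium buffer parvalbumin, Pvalb (-1.03 ± 0.19), and by Casq1 (-0.85 ± 0.18), the calcium store of the fast fiber. The 2 higher members were myosins. Myh2, the heavy chain of IIA fibers, held 1032, 1381, 867 and 548 normalized counts in basal and 2249, 1263, 2166 and 2448 in immobilized libraries, which overlap (1.12 ± 0.41, adjusted p = 0.038). Myh1 of IIX fibers had a log2 fold change of 0.53 ± 0.20 (adjusted p = 0.049), and Myh4 of IIB fibers was not called (-0.37 ± 0.19). Both calls were lost without any of basal replicates 1, 3 or 4 or immobilized replicates 1, 3 or 4, with values of 0.88 to 1.18 for Myh2 and 0.42 to 0.53 for Myh1.

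Other sarcomere genes had 6 higher and 4 lower of 23. The 4 became 2 without any of immobilized replicates 1 to 3 or without basal replicate 3, and with rescaling to a sum of 1000000 the split was 10 higher and 2 lower. Lmod2, a leiomodin that starts thin filaments, rose from 53.4, 71.1, 74.7 and 79.5 normalized counts in basal to 418, 446, 696 and 475 in immobilized libraries (2.84 ± 0.18, adjusted p = 5.34e-10). Klhl40 (1.22 ± 0.27), which stabilizes thin filament proteins, and desmin, Des (0.93 ± 0.09), rose as well. Of 6 lysine methyltransferases 4 were lower and 0 higher in limma (1 at an unadjusted p under 0.05), among them Smyd1 (-0.57 ± 0.17), which serves sarcomere assembly, Mettl21c (-2.01 ± 0.45) and Mettl21e (-1.01 ± 0.24). Calcium handling in excitation and contraction had 10 lower and 5 higher of 25. Rrad, a small GTPase that restrains calcium channels, rose from 0.252, 0.680, 0.958 and 0.616 in basal to 6.03, 16.3, 7.88 and 16.4 in immobilized libraries (2.87 ± 0.53), and the kinase Camk2a fell (-1.35 ± 0.17). Dmd, dystrophin (0.91 ± 0.11), the membrane repair protein Dysf (1.23 ± 0.13) and the laminin receptor Itga7 (1.498 ± 0.15) were the 3 of 17 genes of the dystrophin complex and membrane that rose. As many fell, the dystrobrevin Dtna (-0.36 ± 0.10), sarcospan, Sspn (-0.56 ± 0.17), and the caveola protein Ptrf (-0.43 ± 0.12), so that 35.3% of the list were called, close to the 33.9% of all genes. With rescaling to a sum of 1000000 the counts were 4 higher and 1 lower, and the call of Sspn was lost without the second immobilized library (-0.44).

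Genes of the nerve contact and of denervation showed a partial change. Of 18 acetylcholine receptor and junction genes 7 were higher and 3 lower. Musk, the receptor kinase that organizes the junction, held 5.39, 4.39, 5.65 and 7.16 normalized counts in basal and 17.6, 17.1, 17.6 and 25.6 in immobilized libraries (1.62 ± 0.18, adjusted p = 1.23e-06). The receptor subunit Chrnb1 rose (1.23 ± 0.10), whereas Chrnd was not called (-0.08 ± 0.30). Ache, the esterase that clears acetylcholine, fell (-1.47 ± 0.26), and so did Lrp4 (-0.90 ± 0.22), the partner of Musk. Chrna1 rose by 0.77 ± 0.25, a call that was lost without the third immobilized library (0.69) or without the second (0.73) or the third (0.68) basal library. The count of 7 was 4 without any of these 3 libraries. Among 23 myogenic and activity-dependent regulators 7 were higher and 3 lower. Runx1, a factor induced by denervation, held 1.597, 1.66, 1.30 and 1.52 in basal and 8.003, 11.6, 12.1 and 8.44 in immobilized libraries (2.11 ± 0.25, adjusted p = 1.56e-06). The kinase Sik1 (1.61 ± 0.17), Myf6 (1.46 ± 0.22) and Hdac4 (0.98 ± 0.13) rose and Dach2, a repressor known to fall upon denervation, fell (-1.73 ± 0.26). Myog rose (0.81 ± 0.24) and Myod1 fell (-0.67 ± 0.20). The call of Myog was lost without the third (0.68) or the fourth (0.62) immobilized library and that of Myod1 without the third (-0.46).

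Stress-related programs are given next. Of 20 glucocorticoid response genes 9 were higher and 1 lower, with a median of 0.59. Besides the metallothioneins the higher ones included Per1 (1.81 ± 0.26), Cebpd (1.62 ± 0.39) and Tsc22d3, also named GILZ (1.04 ± 0.22). Fkbp5 (0.28 ± 0.24), which also responds to the hormone, was not called, and the receptor gene Nr3c1 fell (-0.59 ± 0.09). Of 18 p53 targets and growth arrest genes 11 were higher and 3 lower. Gadd45a, known for its rise in denervated muscle, went from 14.2, 16.6, 16.5 and 15.4 normalized counts in basal to 59.5, 82.6, 79.0 and 41.5 in immobilized libraries (1.95 ± 0.22, adjusted p = 1.18e-06), and Cdkn1a, the inhibitor p21, was not called (0.33 ± 0.25). Antioxidant genes had 15 higher and 5 lower of 34. Srxn1 (1.47 ± 0.24), Gsr (1.35 ± 0.14) and Gclm (1.16 ± 0.16), all known targets of Nfe2l2, rose, and the mitochondrial superoxide dismutase Sod2 fell (-0.87 ± 0.08) while the cytosolic Sod1 rose (0.79 ± 0.09). Acute phase genes had 6 higher and 0 lower of 16 in limma (0 lower at an unadjusted p under 0.05), with Lcn2, lipocalin 2, from 0.269, 0.0662, 0.627 and 0.0674 in basal to 2.34, 9.37, 19.8 and 13.0 in immobilized libraries (3.02 ± 0.59, adjusted p = 4.95e-04). These 6 acute phase genes are 37.5% of their list, beside the 33.9% of all genes called in either direction and the 16.2% called higher. Of 19 clock genes 5 were higher, including Cry2 (1.03 ± 0.15), and 3 lower, and with rescaling to a sum of 1000000 the split was 8 and 0. Calls covered 42.1% of the clock list, beside the 33.9% of all genes. The times of day at which muscles were taken are not in the labels, and their part in these values was not tested.

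Immediate early genes had 9 higher and 1 lower of 21. Cyr61, a secreted matrix protein known as a target of YAP and TEAD, held 10.8, 20.3, 13.5 and 14.2 normalized counts in basal and 99.6, 101, 132 and 103 in immobilized libraries (2.83 ± 0.26, adjusted p = 6.59e-08), and Junb rose by 2.20 ± 0.33. Fos rose by 1.89 ± 0.61, a value that fell to 1.04 and lost its call without the third immobilized library. Of 41 collagen and matrix genes 8 were higher and 6 lower (median 0.08), 34.1% beside the 33.9% of all genes. Lox, the collagen cross-linking enzyme, held 5.44, 5.23, 6.33 and 1.71 in basal and 29.4, 15.3, 40.1 and 41.2 in immobilized libraries (2.52 ± 0.48, adjusted p = 3.44e-04), with the fourth immobilized library highest. The summed level of the list was 1928, 2079, 2187 and 1695 normalized counts in basal and 2218, 1486, 2368 and 4047 in immobilized libraries, which overlap. The 6 lower became 3 without the second immobilized library. Of 25 cell cycle genes 6 were higher and 2 lower (32.0%, near the same share of all genes), with the higher count at 3 without the first immobilized library. Top2a (1.18 ± 0.31) rose and Rrm1 (-1.09 ± 0.14) fell.

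Markers of cells other than fibers were summed to see which of them moved with the groups. In whole muscle, fewer cells of a type and less RNA per cell cannot be told apart. Of 6 macrophage markers 2 were higher and 0 lower in limma (0 at an unadjusted p under 0.05), and their summed level was 31.9, 32.3, 74.7 and 18.7 normalized counts in basal and 101, 73.6, 87.4 and 140.0 in immobilized libraries, which overlap by 1 basal library, the third. Cd68 went from 0.655, 1.42, 2.59 and 0.797 in basal to 21.9, 18.02, 21.4 and 29.4 in immobilized libraries (3.37 ± 0.29, adjusted p = 4.12e-08) and Mrc1 rose by 1.46 ± 0.40, while Csf1r (1.04 ± 0.42), C1qa (0.90 ± 0.44) and Emr1, which encodes F4/80 (0.36 ± 0.45), were not called. Cd68 lies next to Eif4a1, itself higher, on chromosome 11. The 2 called macrophage markers are 33.3% of their list. Of all genes 33.9% were called in either direction and 16.2% were called higher. Without the third basal library 4 of the macrophage markers were higher. All 5 endothelial markers were lower (median -0.62), with a summed level of 290.5, 303, 286 and 238 in basal and 167, 128, 171 and 214 in immobilized libraries. Kdr, the Vegfa receptor, fell most (-1.38 ± 0.16). Of 4 mural cell markers 3 were lower, with sums of 453, 614, 384 and 511 in basal and 322, 207, 313 and 375 in immobilized libraries, led by the smooth muscle myosin Myh11 (-1.07 ± 0.19). Of 4 adipocyte markers 2 were lower, among them Cfd (-1.61 ± 0.45), with sums of 4.29 to 23.2 in basal and 1.22 to 5.33 in immobilized libraries. The 2 became 4 without the fourth basal library and 1 without the second immobilized, the first basal or the third basal library. No marker was called in either direction for neutrophils, fibro-adipogenic cells, satellite cells, red cells, Schwann cells or tendon (0 of 21 tested in limma). At an unadjusted p under 0.05, 1 of the 21 was higher, the tendon factor Scx, and 2 were lower, Dpt of fibroblasts among them. By the rule for a call, 3 of 4 red cell markers and 2 of 4 Schwann cell markers were lower without the fourth basal library, 1 Schwann cell marker was lower without the first immobilized library, 1 of 4 fibro-adipogenic markers was lower without the fourth immobilized or the first basal library, and 1 of 3 tendon markers was higher without the second immobilized library and with other pseudocounts or scalings. The summed red cell markers ran from 135 to 1069 in basal and from 138 to 337 in immobilized libraries. No marker was at 0 in any library, since the normalization left no value of 0. T cell markers were not analysed here. The part of these cells in the other changes was not tested.

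**Figure D4:**
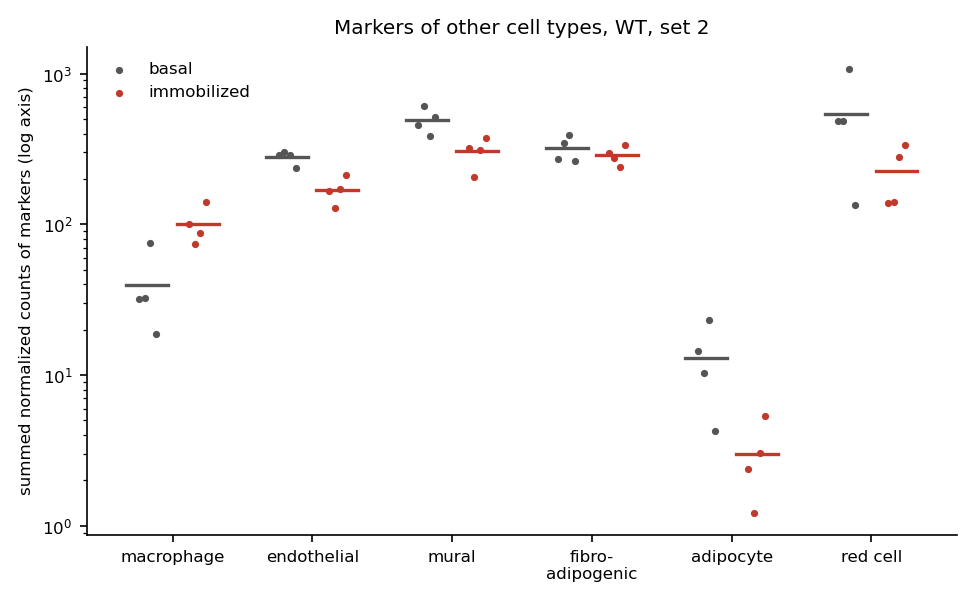
Summed normalized counts (log axis) of the markers of 6 cell types in each of the 4 basal (grey) and 4 immobilized (red) WT libraries. Points are libraries and bars are group means. The endothelial and mural sums of all immobilized libraries lie below those of all basal ones, and the macrophage sums overlap by 1 basal library.

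Set 1 repeated the contrast in 3 immobilized and 4 basal WT muscles. The difference between the effects in set 2 and in set 1 was called in 853 of 13763 genes (6.2%), 435 with a higher (3.16%) and 418 with a lower (3.04%) log2 fold change in set 2. With each library rescaled to a sum of 1000000, which lowered the median difference of all genes from 0.00266 to -0.175, 110 were higher and 618 lower. The 853 became 540 without the second immobilized library of set 2 and 375 without the third immobilized library of set 1. The labels do not say what sets the 2 sets apart, and by the methods their WT mice came from different breedings, so that set and mouse line cannot be told apart. The deposited values look adjusted per gene between sets, so levels were not compared across them, only effects. For the 4 leading genes of set 2 the difference was not called. In set 1 Csrp3 had a log2 fold change of 3.63 ± 0.79 (adjusted p of the difference = 0.17), Ankrd2 of 2.58 ± 0.74 (0.18), Aqp4 of -2.18 ± 0.55 (0.32) and Lrrc38 of -2.17 ± 0.33 (0.25). Of the 13 stretch-responsive and Z-disc-associated genes 2 had a called difference upward, Flnc (1.39 ± 0.42, adjusted p = 0.038) and Nrap (0.92 ± 0.24, adjusted p = 0.018). Their number was 0 with quantile normalization and without the third immobilized library of set 1, and up to 3 without another library, and the call of Flnc was lost in 12 of 26 alternatives. The 31 standard proteasome subunits and the 83 respiratory subunits held 0 genes with a called difference in limma, with 1 and 4 of them at an unadjusted p under 0.05.

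Sfrp1, a secreted Wnt inhibitor, was among the genes with the largest called differences downward, with -0.004 ± 0.45 in set 2 and 2.20 ± 0.31 in set 1 (difference -2.21 ± 0.58). Of 3 other genes with large differences in this direction, Gm4070 (-4.09 ± 0.98) is a predicted gene, and Tmem254c (-2.27 ± 0.61) and Plac9a (-2.15 ± 0.67) have near-identical copies among which reads may be split. Of 5 endothelial markers 4 and of 4 mural markers 3 had a called difference downward, and Kdr, with -1.38 ± 0.16 in set 2 and -0.72 ± 0.25 in set 1, was the endothelial marker without one (difference -0.67 ± 0.30, adjusted p = 0.18). The median log2 fold change of the endothelial markers was -0.62 in set 2 and 0.30 in set 1. That of the mural markers was -0.75 in set 2 and 0.75 in set 1. Of 4 Schwann cell markers 3 and of 4 fibro-adipogenic markers 2 also had a called difference downward. In the other direction, Pfkfb3, which activates glycolysis, had 0.59 ± 0.54 in set 2 and -1.96 ± 0.31 in set 1 (difference 2.55 ± 0.67, adjusted p = 0.018). The protease Adamts20 (2.29 ± 0.51), Chac1, which breaks down glutathione (2.28 ± 0.70), and the insulin receptor substrate Irs2 (2.19 ± 0.56) also had large differences. The call of Pfkfb3 was lost without the second immobilized (2.24) or the second basal (2.10) library of set 2 or the second immobilized library of set 1 (2.30), and that of Irs2 without the third immobilized library of set 1 (1.82). Those of Chac1 and Plac9a were lost in 14 and 19 of 26 alternatives, leaving out of most single libraries included. Of 19 clock genes 6 had a called difference, each toward a higher value in set 2, and 3 of them with rescaling to a sum of 1000000 or quantile normalization, with Ciart at 1.00 ± 0.31 in set 2 and -1.19 ± 0.24 in set 1. Sesn1 differed too: its 0.63 ± 0.17 in set 2 stood against -0.41 ± 0.24 in set 1 (difference 1.04 ± 0.30, adjusted p = 0.032). That call was lost with rescaling to a sum of 1000000 (0.85) and without any of replicates 2 and 3 of immobilized muscle in either set, replicates 2 and 4 of basal muscle in set 2, or replicates 1 and 2 of basal muscle in set 1.

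Loss of sestrin 1 was tested as a change of the immobilization effect within set 2. In the Sesn1-/- mice the targeted gene was checked first. Sesn1 held 9.11, 10.05, 8.41 and 8.99 normalized counts in their basal and 37.3, 27.7, 19.4 and 19.6 in their immobilized libraries. Their means were 35.4% of the WT mean in basal and 63.4% in immobilized muscle. The table gives 1 value per gene, and the exons behind the remaining reads were not analysed here. The difference between the effect in Sesn1-/- and in WT muscle was called in 3 of 13629 genes (0.022%), with 2 higher (0.0147%) and 1 lower (0.00734%). Pdp1, a phosphatase that activates pyruvate dehydrogenase, had -1.10 ± 0.11 in Sesn1-/- and -0.14 ± 0.11 in WT muscle (difference -0.95 ± 0.15, adjusted p = 0.026). Tinagl1, a matrix protein of the basement membrane, had 0.58 ± 0.14 in Sesn1-/- and -0.67 ± 0.14 in WT muscle (difference 1.25 ± 0.20). Alpk2, an alpha kinase, had 1.30 ± 0.20 and -0.40 ± 0.20 (difference 1.705 ± 0.28). The count of 3 ranged from 0 to 14 when 1 library was left out and was 0 in a fit of only the 4 groups, with 14 without the fourth immobilized Sesn1-/- library. Of 27 alternatives, the calls were lost in 13 for Pdp1, 15 for Tinagl1 and 14 for Alpk2. Csrp3 rose by 5.27 ± 0.40, Ankrd2 by 4.15 ± 0.28, Trim63 by 1.72 ± 0.28 and Fbxo32 by 1.02 ± 0.40 in Sesn1-/- muscle, with no called difference from WT. The 95% interval of the difference ran from -2.05 to 0.30 for Fbxo32, from -1.19 to 0.44 for Trim63 and from -1.66 to 0.71 for Csrp3.

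Denervation, which the paper counts beside immobilization as inactivity, was set directly against immobilization, since both share the basal libraries. In denervated mice the nerve was cut, and in immobilized mice the limb was fixed from outside. Of 13629 genes 5297 (38.9%) differed between denervated and immobilized muscle, 2789 higher (20.5%) and 2508 lower (18.4%) after denervation. The summed normalized counts of the denervated libraries were 722430 to 811541, below those of the basal and immobilized ones. With each library rescaled to a sum of 1000000 the median of all genes moved from -0.019 to 0.258 and the split became 5499 higher and 1183 lower.

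Mustn1 and Csrp3, among the largest rises of immobilized muscle, led the differences downward in denervated muscle. Both genes had been picked for high values in the same immobilized libraries, so their place here is not independent of that choice. Mustn1 held 49.7, 65.5, 44.9 and 29.2 normalized counts in denervated libraries beside 973, 626, 1146 and 969.9 in immobilized and 33.6, 47.9, 52.2 and 45.7 in basal ones, so that denervated libraries lay with the basal ones (denervated against immobilized -4.29 ± 0.25, adjusted p = 8.35e-11). Csrp3 held 37.4, 55.7, 20.9 and 20.1 in denervated muscle, above basal and below every immobilized library (-4.17 ± 0.40). Of 13 stretch-responsive and Z-disc genes 9 were lower and 2 higher in denervated than in immobilized muscle, beside 18.4% and 20.5% of all genes. As the members were chosen with earlier results of these data known, the count describes them and does not test the group. Myh2 held 242, 143, 125 and 115, below every basal and immobilized library (-3.71 ± 0.41, adjusted p = 3.72e-07). Perm1 (-3.88 ± 0.12) and the ketone body enzyme Bdh1 (-3.47 ± 0.23) were the other 2 of the 5 with the largest differences downward.

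In the other direction stood genes known for their response to the loss of the nerve. Myog held 116, 119, 85.4 and 96.0 normalized counts in denervated libraries beside 1.58, 2.00, 4.02 and 4.63 in immobilized and 0.969, 0.872, 1.55 and 1.49 in basal ones (4.76 ± 0.24, adjusted p = 1.20e-11). The acetylcholine receptor subunit Chrnd held 57.0, 58.8, 47.0 and 31.6 beside 1.504, 1.92, 1.09 and 1.05 in immobilized and 1.81, 0.659, 2.09 and 1.703 in basal ones (4.35 ± 0.30). Of 18 junction genes 10 were higher and 1 lower in denervated than in immobilized muscle, with Chrna1 at 3.83 ± 0.25. The actin-bundling protein Aif1l (4.15 ± 0.27) and the keratin Krt18 (3.91 ± 0.31) followed. Cdkn1a, not called in immobilized muscle, held 114, 121, 93.6 and 105 in denervated beside 6.96, 7.29, 12.7 and 6.05 in immobilized libraries (3.60 ± 0.25). Of the 31 standard proteasome subunits 4 were higher and 0 lower in denervated than in immobilized muscle in limma (8 and 0 at an unadjusted p under 0.05), beside 20.5% and 18.4% of all genes. That count depended on the scale, with 13 higher under quantile normalization and 27 with rescaling to a sum of 1000000. Trim63 and Fbxo32 were not called, with differences of 0.23 ± 0.28 (95% interval -0.35 to 0.80) and 0.28 ± 0.40 (-0.55 to 1.12), whereas under quantile normalization both were higher in denervated muscle, by 0.72 and 1.04. Of the 83 respiratory subunits 79 were lower in denervated than in immobilized muscle and 0 higher in limma (0 at an unadjusted p under 0.05), and 46 were lower with rescaling to a sum of 1000000.

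**Figure D5:**
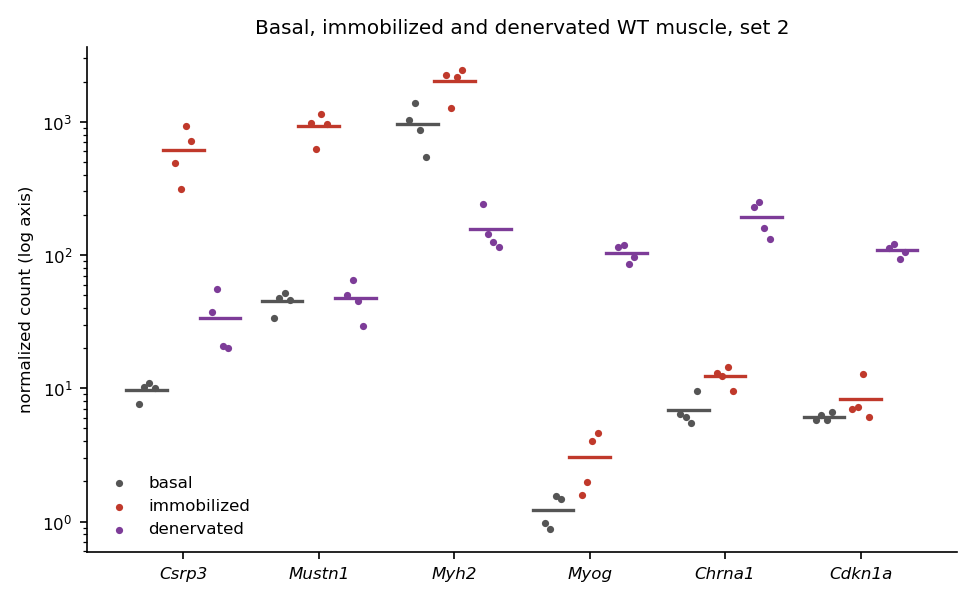
Normalized counts (log axis) of 6 genes in each of the 4 basal (grey), 4 immobilized (red) and 4 denervated (purple) WT libraries of set 2. Points are libraries and bars are group means. Mustn1 is high only in the immobilized libraries of the 3 groups shown, and Myog, Chrna1 and Cdkn1a have their highest values in the denervated ones.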

How the data were processed

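Total RNA of TA muscle was made into NEBNext Ultra libraries, for which no strand setting is stated, and sequenced on an Illumina HiSeq instrument. According to the methods and the submitters' processing notes, reads were checked with FastQC, trimmed with Cutadapt 1.7.1, assigned to mouse transcripts of GRCm38 by RSEM 1.2.20 and normalized in limma. The authors deposited 1 signal value per gene and library, a normalized count that is not on a log scale and lies close to CPM, and none is 0 (the lowest is 0.00476). Whole reads could not be recovered from them, so the depth per library is unknown and no counting interval is given. How the sets were combined is not given in the sources used here.

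Groups were taken from the labels. A gene entered the fit if some library of the set reached a value of 1. Its log2(value + 1) was fitted in limma 3.58.1 under R 4.3.3 with 1 coefficient per group, followed by eBayes with its trend option. The pseudocount of 1 makes fold changes of low genes too small. Two-sided p-values received the Benjamini-Hochberg adjustment over all genes of a comparison. A call required an adjusted p under 0.05 and a log2 fold change of 0.25 or more in either direction. The Sesn1-/- and denervation comparisons used the 20 libraries of set 2 and the comparison of sets all 42 libraries. The comparisons share libraries. The fit was tested on simulated data. Alternatives were other pseudocounts, filters, scalings, eBayes settings, sample sets and thresholds, the replicate number as a block and the leaving out of each library.

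Positions and exon overlaps come from GENCODE M21 (GRCm38), which matched 13536 of 13629 genes (99.3%), and promoter sequences from RefSeq (GRCm38.p6). The members and the gene lists were chosen with earlier results of these data known. Genes named are the 4 leading genes given for the contrast, the 10 largest called changes in each direction among genes whose groups do not overlap, list members, the 5 largest called differences in each direction of each further comparison, the sestrins, and genes that overlap one of these. Pseudogenes were skipped, and 3 genes that this rule picks are not reported here.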

Additional observations from a re-analysis of the deposited data

Results flagged for a closer look

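Within groups of 4 libraries, a library was set apart where its gap to the nearest other library, divided by the range of the group, exceeded Dixon's 95% critical value. Chance sets apart about 1 in 20 such groups. Of 121 groups whose library values are printed, 10 (8.26%) had such a library. In basal muscle, the fourth library was low for Idh2 (gap ratio 0.951), Rpl3l (0.867) and Myom3 (0.86), the third was high for Mt2 (0.902) and the second was high for Sdhd (0.881). In immobilized muscle, the third library was high for Cyr61 (0.898), Gdf5 (0.882) and Vegfa (0.859), and the fourth was high for Musk (0.937) and Sdhd (0.895). Each of these genes kept its call and its direction without the library set apart. The log2 fold change of Idh2 went from -1.55 to -1.83, that of Gdf5 from 0.99 to 0.70, that of Myom3 from 3.49 to 3.27 and that of Mt2 from 5.15 to 5.42.

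The immobilization effect differed between Sesn1-/- and WT muscle by a tested interaction in Pdp1 (-0.954), Tinagl1 (1.25) and Alpk2 (1.7). Between set 2 and set 1 it differed upward in Pfkfb3 (2.55), Adamts20 (2.29), Chac1 (2.28), Irs2 (2.19), Ciart (2.19), Flnc (1.39), Sesn1 (1.04) and Nrap (0.921). It differed downward in Gm4070 (-4.09), Tmem254c (-2.27), Sfrp1 (-2.21) and Plac9a (-2.15). The cause of these differences was not tested.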

How the results depend on the processing

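The count of 4624 genes called between immobilized and basal muscle was 686 when a log2 fold change of at least 1 was asked for, and 3884 to 4584 with 1 library left out. Libraries with the same replicate number came from different mice, and their deviations from the group means correlated at -0.0404, -0.0987, 0.000208 and -0.208, so that the numbers do not pair them. With the replicate number as a block the count was 4505. The count of 5297 between denervated and immobilized muscle was 933 at a log2 fold change of at least 1 and 4581 to 5079 with 1 library left out. For the comparison of sets, 853 became 389 and 375 to 1097. The 3 genes of the Sesn1-/- comparison became 5 with quantile normalization, with median centring and with robust eBayes, 0 without the trend, 0 with the replicate block and 0 with only the 4 groups, and 0 to 14 with 1 library left out. The cause was not tested.

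Among named genes, further calls were lost as follows. Ciart lost its call without immobilized replicate 2 (0.83), immobilized replicate 3 (0.86) or basal replicate 2 (0.88), and Ckm with quantile normalization (-0.19). Gdf5 and Psme4 lost theirs in the fit of all 42 libraries. In the comparison of sets, Sfrp1 lost its call without immobilized replicate 3 of set 1, and Tmem254c without immobilized replicate 2, immobilized replicate 3 or basal replicate 1 of set 1 and with no pseudocount.

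In the alternatives run, the sign turned or was lost for 6 named values, none of which was called in the report. Sfrp1 in set 2 was 0.0818 with rescaling to a sum of 1000000, 0.0738 with quantile normalization, 0.0285 with median centring, and -0.464 to 0.377 with 1 library left out. Mtf1 was 0.0833 with rescaling and -0.125 to 0.0432 with 1 library left out, and Slc30a1 was 0.0442 and -0.158 to 0.0179. With 1 library left out, Chrnd ran from -0.276 to 0.0239 and the Sesn1-/- difference of Ankrd2 from -0.471 to 0.0081. Myh4 was 0 with quantile normalization. The number of reads per library being unknown, the precision of genes with values near or under 1 could not be set.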
